A study of Mus musculus with 11 samples.

Results

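Lipid-associated macrophages are tissue macrophages that have taken up much lipid and cell debris and express a shared set of genes for lipid handling, lysosomes and matrix remodelling. They were described in obese adipose tissue and are also known from the infarcted heart, where macrophages clear dead cardiomyocytes. The genes followed here as a list under this name, in bulk RNA-Seq of the mouse left ventricle, were Chil3, Mmp12, Gpnmb, Atp6v0d2, Itgax, Spp1, Trem2, Cd9, Fabp5 and Lgals3. They were matched by gene symbol to the Ensembl identifiers of the count data, which held 25006 genes, and all 10 were among the 14779 genes that passed the filter on low counts. Chil3, Mmp12, Gpnmb, Atp6v0d2 and Itgax were chosen by their values in the naive libraries, and how the other members were selected on these data is not recorded. For that reason every comparison that sets naive libraries against others or each other is given for the members as a description. The comparison of genotypes after MI is the one that was tested. Its differences are between MI libraries, but its SEs, intervals and p-values use a spread estimated over all 4 groups. The naive spread by which members were chosen is part of that estimate, so this test is not free of the choice.

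The study asked how loss of Vegfc, a lymphangiogenic growth factor, from myeloid cells changed the heart after myocardial infarction (MI). MI was made by permanent ligation of a coronary artery, infarcted left ventricle was taken 9 days later, and naive ventricle of like mass and position came from mice without ligation. The groups were naive control (libraries M44 and M45), naive Vegfc-deficient (M149, M150 and M34), MI control (M006, M38 and M40) and MI Vegfc-deficient (M35, M900 and M913), with n = 2, 3, 3 and 3, and values of a group are given in this order of its libraries. Total counts were 10824989 to 14585642 in the naive libraries and 14580756 to 26782728 in the MI libraries, so that 3 counts, taken as the floor, amounted to 0.112 to 0.277 CPM (counts relative to the depth of a library), a floor for counting error only. The Vegfc-deficient mice are labelled Vegfc fl/fl ; LysMCre, a floxed Vegfc allele with Cre expressed from the Lyz2 locus, which is active in macrophages and neutrophils. Controls are labelled Vegfc fl/fl, whereas the protocol names LysMCre mice as controls, so which allele the controls carried is uncertain. Ages are not given. CPM were scaled by the TMM method of edgeR, and RPKM (CPM per kilobase of exon) are given where levels of different genes are compared.

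Vegfc itself was 21.9 to 45.5 CPM over all 11 libraries and did not separate the genotypes, and in bulk tissue fewer cells of a type and less RNA per cell cannot be told apart. Lyz2, whose locus carries the Cre, stood at 2121 CPM in M44, 2282 in M45, 4565 in M149, 72.5 in M150 and 245 in M34. Its level in infarcts was 4538 to 5380 CPM for the controls and 1392 CPM in M35, 203 in M900 and 12.4 in M913 for the deficient mice. The library labelled naive Vegfc-deficient M149 thus had more Lyz2 than either naive control, whereas M150 and M34 had less. M35 had the most Lyz2 of the MI Vegfc-deficient libraries. How many Cre alleles an animal carried is not given, and Lyz2 is also a macrophage marker, so no genotype was read from these levels. Cardiomyocyte markers summed to 24385 CPM in M35 and to 2398 to 12195 CPM in the other MI libraries, so M35 also stood apart in its content of muscle RNA. Xist was 0.624 to 11.8 CPM in the 5 naive libraries and 188 to 403 CPM in the 6 MI libraries, with the Y-linked gene Ddx3y at 29.4 to 41.2 and at 0 to 0.503 CPM, so that sex and MI cannot be told apart.

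The members followed one pattern among the naive libraries. M149 was the highest of the 5 and M150 the lowest for 10 of 10 members, with M34 next to lowest each time and the naive controls M44 and M45 in between. The highest naive level was 82.8 times the lowest for Atp6v0d2, 64.5 times for Chil3, 62.0 times for Gpnmb, 54.0 times for Mmp12 and 42.2 times for Itgax. It was 26.8 times for Lgals3, 12.3 times for Spp1, 4.49 times for Trem2, 4.07 times for Cd9 and 3.09 times for Fabp5. The first 5 are the genes chosen by their naive values, and Lgals3 stands nearest to them among the rest. The median span of the members was 34.5 times, against 1.49 times over all genes tested, and M149 was the highest naive library for 19.9% of all genes. Among the 6 MI libraries the spread was smaller for most members, from 1.87 times for Cd9 to 18.9 times for Mmp12, and M35 was the lowest MI library for 8 of 10. It was also lowest for 25.3% of all genes, for 73.7% of the other genes of the programme and for 63.6% of macrophage markers.

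**Figure D1:**
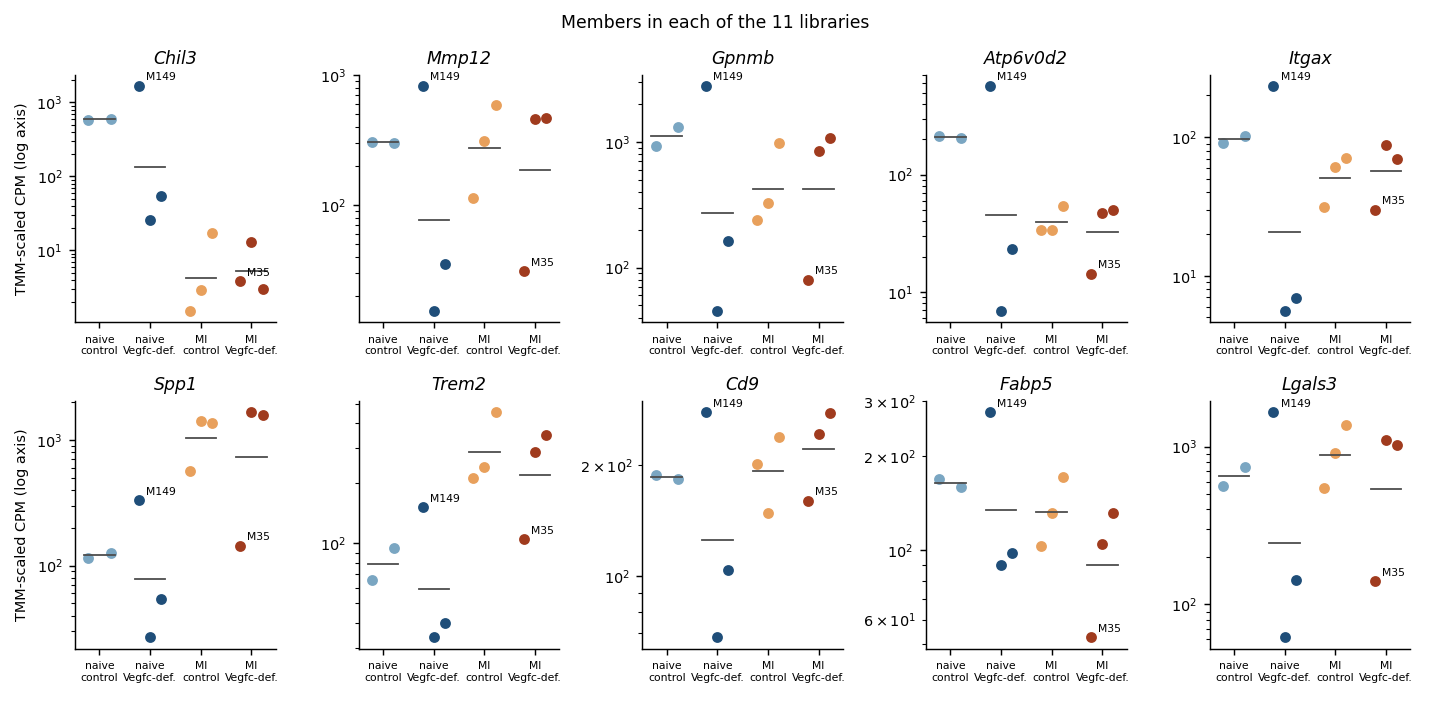
CPM of the 10 members (log axes that differ between panels) in each of the 11 libraries, with 1 point per library and a line at the geometric mean of the group. M149 is the highest naive point in 10 of 10 panels, and M35 is the lowest MI point in 8 of 10.

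The start regions of some members are shown as a description of sequence. The 3 that share a motif there are among the genes chosen by their naive values. No link between the motif and the naive spread was tested. RefSeq starts (GRCm38.p6) were at hand for 8 of the 10 members, the exceptions being Atp6v0d2 and Fabp5, and each window of 280 bases runs from 250 bases before the start to 30 after it, written 5′ to 3′ along the gene. The AP-1 motif TGAGTCA, searched on both strands, was found in Gpnmb, Itgax and the second annotated start of Mmp12, and in 4.95% of 32817 promoters of the same length. It began 8 bases after the start of Gpnmb, 56 bases before that of Itgax and 44 bases before that of Mmp12. Chil3, which had a like span among naive libraries, is printed as the contrast without it. Capitals mark matches to the motifs that were searched, which in the Mmp12 window include the M-box TCATGTG on the other strand (3.61% of promoters).
Gpnmb, chr6:49036268-49036547, plus strand: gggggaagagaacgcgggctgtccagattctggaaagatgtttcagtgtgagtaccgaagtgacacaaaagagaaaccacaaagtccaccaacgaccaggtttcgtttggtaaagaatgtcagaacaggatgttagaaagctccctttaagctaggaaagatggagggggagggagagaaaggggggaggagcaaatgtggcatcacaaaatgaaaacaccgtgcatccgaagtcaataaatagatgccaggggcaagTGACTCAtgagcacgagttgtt
Itgax, chr7:128129300-128129579, plus strand: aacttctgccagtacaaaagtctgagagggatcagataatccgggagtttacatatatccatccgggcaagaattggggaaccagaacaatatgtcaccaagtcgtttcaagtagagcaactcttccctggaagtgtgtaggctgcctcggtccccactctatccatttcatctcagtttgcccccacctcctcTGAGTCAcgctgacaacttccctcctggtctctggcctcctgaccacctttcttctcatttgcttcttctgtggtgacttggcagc
Mmp12, chr9:7347124-7347403, plus strand: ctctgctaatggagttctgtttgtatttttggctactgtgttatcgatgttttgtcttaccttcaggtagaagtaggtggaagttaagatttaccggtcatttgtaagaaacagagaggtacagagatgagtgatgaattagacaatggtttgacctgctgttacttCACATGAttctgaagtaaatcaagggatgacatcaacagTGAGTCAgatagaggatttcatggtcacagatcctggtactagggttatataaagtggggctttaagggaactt
Chil3, chr3:106167535-106167814, minus strand: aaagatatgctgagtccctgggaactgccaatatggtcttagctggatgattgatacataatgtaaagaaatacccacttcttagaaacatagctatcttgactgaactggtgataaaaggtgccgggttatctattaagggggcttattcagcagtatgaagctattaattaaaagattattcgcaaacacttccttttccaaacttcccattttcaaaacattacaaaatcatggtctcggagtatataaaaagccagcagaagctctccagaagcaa
The ETS core GAGGAA was found in Spp1, Trem2 and the first start of Mmp12, against 26.0% of promoters, and the E-box CACGTG in none of the 8 members, against 6.79%. No 2 of these matches overlapped. A match describes letters in a window and not a binding site.

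Among the secreted members Chil3 was low and Spp1 high in the MI libraries. Chil3 (chitinase-like protein 3, or Ym1; chromosome 3, 106147554 to 106167564 in GRCm38, ENSMUSG00000040809) is a lectin of alternatively activated and alveolar macrophages that neutrophils also make. It was 579.9 and 601 CPM in M44 and M45, 1679, 26.0 and 54.2 CPM in M149, M150 and M34, 1.51, 2.87 and 16.9 CPM in the MI controls, and 3.82, 13.1 and 3.02 CPM in M35, M900 and M913. All 5 naive libraries lay above all 6 MI libraries, a separation that no other member had. The log2 fold change of MI over naive was −6.37 ± 1.76 (SE) in control and −6.45 ± 1.73 in Vegfc-deficient mice, and −2.59 in the latter without M149. Both MI libraries with the most Chil3 were those with the most Ngp, a granule gene of immature neutrophils, at 18.0 CPM in M40 and 18.3 CPM in M900 against at most 1.02 CPM in the other MI libraries. The summed neutrophil markers were likewise 411 and 220.3 CPM there and 38.1 to 64.7 CPM in the others. S100a8, S100a9, Cxcr2, Retnlg, Camp and Ltf were also highest in M40 and M900. Mpo and Elane were lower in M900 (0.461 and 0.168 CPM) than in M38 (1.69 and 1.12 CPM), and Csf3r was highest in M38. Among the naive libraries M149 had the largest sum, but M150 and M34 had larger sums than M44 and M45 and less Chil3. The part of neutrophils in the Chil3 level was not tested. Chil4, a near-identical neighbour whose reads could be shared with Chil3, had at most 8 counts in any library.

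Spp1 encodes osteopontin, a secreted matrix protein that binds CD44 and integrins (chromosome 5, 104435118 to 104441050, ENSMUSG00000029304). Its level was 115 and 126 CPM in the naive controls, 332, 26.9 and 54.0 CPM in M149, M150 and M34, 570.3, 1422 and 1368 CPM in the MI controls, and 144, 1663 and 1589 CPM in M35, M900 and M913. Every MI library except M35 lay above every naive library. The log2 fold change of MI over naive was 3.21 ± 1.25 in control and 3.04 ± 1.05 in Vegfc-deficient mice, where it was 4.80 without M149.

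Mmp12, the macrophage metalloelastase that degrades elastin (chromosome 9, 7344381 to 7369499, ENSMUSG00000049723), had MI values on both sides of the naive controls. It was 308 and 304 CPM in M44 and M45, 829.9, 15.4 and 35.1 CPM in M149, M150 and M34, 114, 313 and 591 CPM in the MI controls, and 31.3, 457 and 467 CPM in M35, M900 and M913. The MI control and naive control libraries overlapped, and the log2 fold change of MI over naive was 0.15 ± 1.49 in control mice. In Vegfc-deficient mice it was 0.12 ± 1.33 with M149 and 3.65 without it, so that this library set the value. Mmp1b, whose annotated span overlaps that of Mmp12, was at 0 CPM in all 11 libraries. Lgals3 encodes galectin-3, a β-galactoside-binding lectin released by macrophages (chromosome 14, 47367751 to 47386160, ENSMUSG00000050335). It was 566 and 746 CPM in the naive controls, 1657, 61.8 and 143 CPM in M149, M150 and M34, 546, 909.8 and 1368 CPM in the MI controls, and 139.8, 1101 and 1025 CPM in M35, M900 and M913. Its MI and naive values overlapped in both genotypes, with log2 fold changes of 0.52 ± 1.22 and 0.28 ± 1.08, the latter 2.88 without M149.

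The lysosomal members had lower values in most MI control than in naive control libraries. Atp6v0d2 encodes a subunit of the proton pump V-ATPase that is enriched in osteoclasts and some macrophages (chromosome 4, 19876841 to 19922605, ENSMUSG00000028238). It was 213 and 205 CPM in M44 and M45, 571, 6.90 and 23.4 CPM in M149, M150 and M34, 33.8, 34.1 and 53.9 CPM in the MI controls, and 14.3, 47.2 and 49.5 CPM in M35, M900 and M913. The control libraries did not overlap between MI and naive, with a log2 fold change of −2.36 ± 1.31. In Vegfc-deficient mice it was −2.44 ± 1.24 and turned to 1.27 without M149. Gpnmb, a glycoprotein of lysosomes and the cell surface (chromosome 6, 49036546 to 49070929, ENSMUSG00000029816), was 931 and 1325 CPM in the naive controls and 2799, 45.1 and 162 CPM in M149, M150 and M34. Its MI values were 239, 324 and 985 CPM in the controls and 80.3, 847 and 1084 CPM in M35, M900 and M913. These ranges overlapped, and the log2 fold changes were −1.13 ± 1.44 and −0.58 ± 1.31, the latter 2.69 without M149.

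The surface receptors were split. Trem2, a lipid-sensing receptor of macrophages and microglia (chromosome 17, 48346401 to 48354147, ENSMUSG00000023992), was 65.5 and 94.7 CPM in the naive controls, 152, 33.8 and 40 CPM in M149, M150 and M34, 212, 243 and 456 CPM in the MI controls, and 105, 288 and 351 CPM in M35, M900 and M913. Every MI library lay above both naive controls, and only M35 fell below M149. The log2 fold changes of MI over naive were 1.92 ± 0.74 and 1.72 ± 0.63, the latter 2.75 without M149. Itgax encodes CD11c, the integrin chain of dendritic cells and of some macrophages (chromosome 7, 128129547 to 128150657, ENSMUSG00000030789). It was 91.1 and 102 CPM in M44 and M45, 235, 5.57 and 6.92 CPM in M149, M150 and M34, 31.2, 60.5 and 70.7 CPM in the MI controls, and 29.9, 88.5 and 70.0 CPM in M35, M900 and M913. The MI controls lay below the naive controls, while M150 and M34 lay below all MI libraries. Its log2 fold changes were −0.84 ± 1.23 in control and −0.39 ± 1.12 in Vegfc-deficient mice, and 3.32 in the latter without M149.

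Cd9 and Fabp5 spread least among the naive libraries. Cd9 is a tetraspanin of many cell types (chromosome 6, 125460266 to 125494791, ENSMUSG00000030342), and it was 188 and 183 CPM in M44 and M45, 278, 68.3 and 104 CPM in M149, M150 and M34, 201, 148 and 238 CPM in the MI controls, and 159.9, 242 and 277 CPM in M35, M900 and M913. The ranges overlapped between MI and naive in each genotype, with log2 fold changes of 0.078 ± 0.50 and 0.59 ± 0.45, the latter 1.39 without M149. Fabp5, a cytosolic fatty acid carrier (chromosome 3, 10012548 to 10016607, ENSMUSG00000027533), was 169 and 159.9 CPM in the naive controls, 277, 89.7 and 98.0 CPM in M149, M150 and M34, 103, 132 and 172 CPM in the MI controls, and 52.7, 105 and 132 CPM in M35, M900 and M913. Its ranges overlapped as well, with log2 fold changes of −0.27 ± 0.50 and −0.68 ± 0.46, the latter 0.043 without M149.

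Counted over the list, with nothing read from it since naive values took part in the choice, 0 members passed the threshold upward and 1 downward in control mice, beside 26.1% and 24.1% of all genes tested. In Vegfc-deficient mice 2 passed upward and 1 downward, beside 29.9% and 27.6%. The medians of the members' log2 fold changes were −0.10 and −0.14, against 0.13 and 0.10 over all genes. Leaving out M149 moved the value of the Vegfc-deficient mice for 10 of 10 members by more than 1 SD of the libraries within groups. Leaving out M35 instead turned no direction, with values from −6.18 for Chil3 to 3.57 for Spp1. Between naive genotypes the libraries of the groups did not separate for any member, beside 22.4% of all genes, since M149 lay above both naive controls and M150 and M34 below them for each member.

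**Figure D2:**
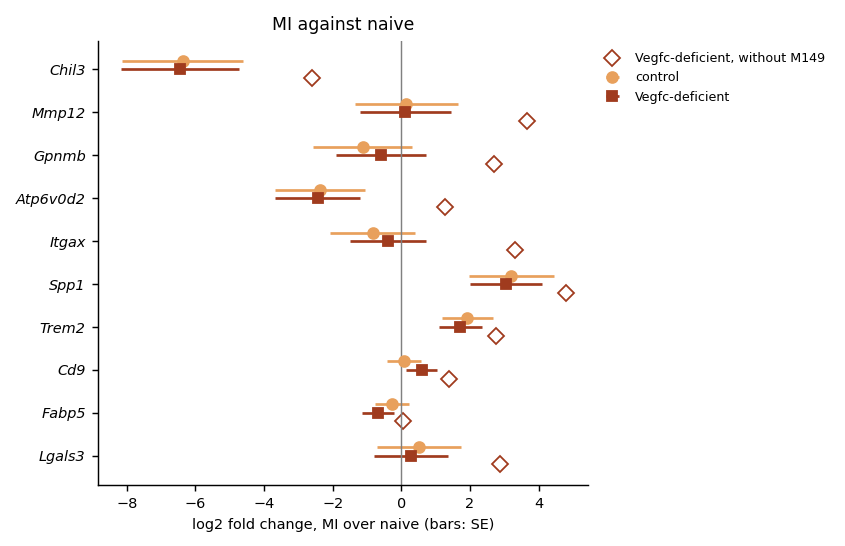
Log2 fold change of MI over naive for each member in control mice (circles) and Vegfc-deficient mice (squares), with bars for the SE, and in Vegfc-deficient mice without the library M149 (open diamonds, no error drawn). Chil3 lies at −6.37 and −6.45 with M149, and Mmp12 goes from 0.12 to 3.65 without it.

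The makeup of the list also differed between the libraries. The summed RPKM of the members was 144 in M150, 269 in M34, 1165 and 1342 in the naive controls and 3170 in M149, and 307 in M35 against 882 to 2101 in the other MI libraries. Chil3 made up 27.4% to 32.5% of this sum in M44, M45 and M149, 11.1% in M150 and 12.3% in M34, and 0.0915% to 0.762% in the MI libraries. Spp1 made up 5.71% to 12.2% in the naive libraries and 28.4% to 52.9% after MI, where it led the list per length in all 6 libraries and Chil3 stood last in all 6. The share of Lgals3 was 23.2% to 35% throughout, while that of Cd9 was highest in the libraries with the smallest sums, at 23.2% in M150 and 25.5% in M35.

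**Figure D3:**
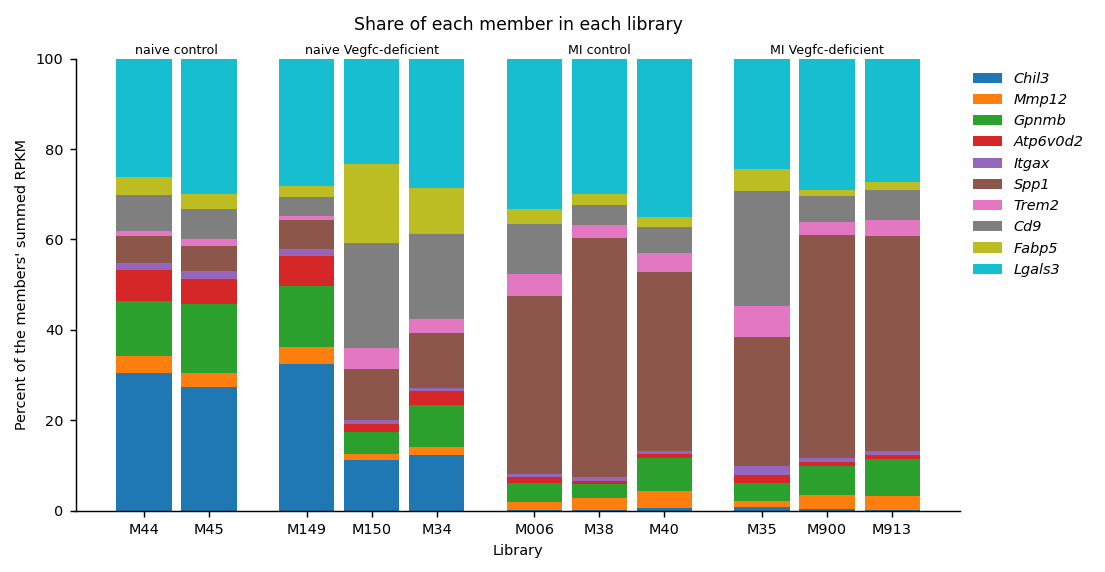
Share of each member (percent) in the members' summed RPKM, 1 bar per library in the 4 groups. Chil3 fills 27.4% to 32.5% of the bars of M44, M45 and M149 and 0.0915% to 0.762% of the MI bars, where Spp1 fills 28.4% to 52.9%.

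The comparison of genotypes after MI asks whether loss of myeloid Vegfc changed the levels of the members in the infarct. None of the 10 members differed by edgeR's quasi-likelihood test, beside 0% of all genes tested (0 of 14779), and DESeq2 called 51 genes but none of the members. At an unadjusted p below 0.05 the test passed 0 members, beside 7.88% of all genes, and 0 members had groups that did not overlap, beside 12.1%. The largest log2 difference was that of Fabp5, at −0.49 ± 0.45 (SE; 95% confidence interval −1.50 to 0.52; adjusted p = 0.823). Gpnmb differed by 0.38 ± 1.30 (adjusted p = 0.963), Lgals3 by −0.32 ± 1.08 (adjusted p = 0.963) and Trem2 by −0.29 ± 0.61 (adjusted p = 0.932).

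The remaining differences ran from −0.13 for Atp6v0d2 to 0.22 for Itgax on the log2 scale, and each was smaller than its SE. Spp1 averaged 1120 ± 477 CPM in MI control and 1132 ± 857 CPM in MI Vegfc-deficient mice (mean ± SD, n = 3 each). The intervals were wide: that of Chil3 ran from −3.25 to 3.06, and that of Cd9, among the narrowest, from −0.79 to 1.20. Differences of several-fold in Chil3, Mmp12 or Gpnmb were thus not detectable with these libraries. The naive spread by which these genes were chosen is part of the estimate behind their intervals. M35 lay below every MI control for Mmp12, Gpnmb, Atp6v0d2, Itgax, Spp1, Trem2, Fabp5 and Lgals3, whereas M900 and M913 lay within or above the range of the MI controls for each of these 8 genes. Without M35 the log2 difference was 0.90 for Gpnmb, 0.55 for Itgax, 0.54 for Spp1, 0.44 for Mmp12 and 0.40 for Cd9. It was 0.25 for Atp6v0d2, 0.18 for Lgals3, 0.17 for Chil3, 0.072 for Trem2 and −0.20 for Fabp5, so that Mmp12, Atp6v0d2, Lgals3, Chil3 and Trem2 changed sign, and the adjusted p of the 10 members ran from 0.914 to 0.991.

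**Figure D4:**
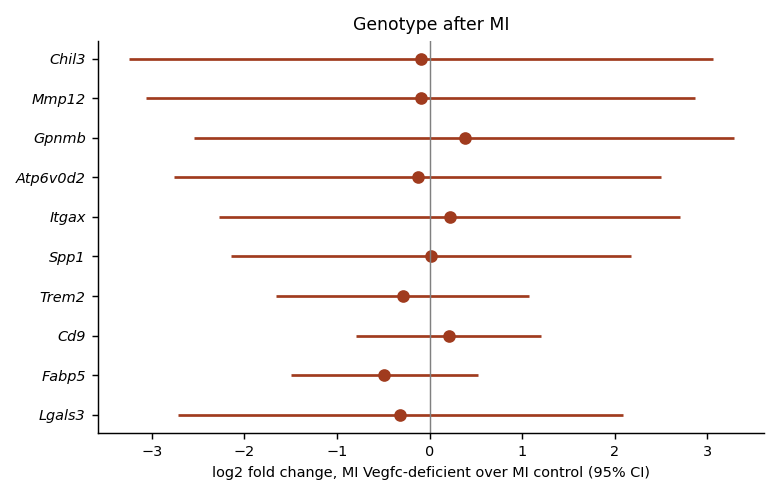
Log2 fold change of MI Vegfc-deficient over MI control for each member (points) with its 95% confidence interval (bars), from edgeR's fit of all 11 libraries. All 10 intervals include 0, from −3.25 to 3.06 for Chil3 to −0.79 to 1.20 for Cd9.

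Genes that work with the members were followed as lists of non-members, for which MI against naive was tested. These lists were also chosen with earlier results of these data known, so the tests are not independent of that choice. Of 8 partners of TREM2 signalling, 5 rose and 0 fell in control mice, beside 26.1% and 24.1% of all genes tested. In Vegfc-deficient mice 4 rose and 0 fell, beside 29.9% and 27.6%. Tyrobp, the adaptor through which TREM2 signals, rose by 1.48 ± 0.43 in control mice (adjusted p = 0.016) and differed by 0.39 ± 0.37 in Vegfc-deficient mice (adjusted p = 0.379), and the difference between these effects did not pass the test (−1.09 ± 0.56, adjusted p = 0.624). Hcst, an adaptor of the same kind, rose by 1.90 ± 0.46 in control mice (adjusted p = 0.00645) and differed by 0.29 ± 0.38 in Vegfc-deficient mice (adjusted p = 0.529), and the difference of these effects did not pass (adjusted p = 0.551). The kinase Syk differed by 0.63 ± 0.39 and 0.84 ± 0.34 and did not pass in either genotype, whereas the phospholipase Plcg2 rose in both, by 1.03 ± 0.30 and 1.25 ± 0.26. Inpp5d, a lipid phosphatase that restrains the pathway, rose by 1.35 ± 0.35 and 1.53 ± 0.30. Clu, an apolipoprotein that TREM2 binds, rose by 1.81 ± 0.52 in Vegfc-deficient mice, and by 0.79 without M35, which alone held 2271 CPM. In control mice Clu differed by −0.07 ± 0.57 (adjusted p = 0.926), and the difference between the genotypes' effects did not pass the test (adjusted p = 0.557). Without M44 or M45 the naive control group is a single library. Fewer of these partners then passed in control mice, as did fewer of all genes tested.

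Of 10 receptors of osteopontin and galectin-3 and their integrin partners, 6 rose and 0 fell in each genotype. Of all genes tested, 26.1% rose and 24.1% fell in control mice, and 29.9% and 27.6% in Vegfc-deficient mice. Without M149 10 of the receptors and partners rose in Vegfc-deficient and 8 in control mice. In that fit 8351 and 7624 of all genes passed in either direction in these genotypes. Itgb5 rose by 1.90 ± 0.24 and 1.98 ± 0.20, Itgav, its partner chain, by 2.01 ± 0.20 and 1.32 ± 0.17, and Itgb3, another partner of Itgav, by 1.74 ± 0.35 and 2.68 ± 0.31. Itgb2, the chain that pairs with Itgax, differed by −0.65 ± 0.99 and −0.29 ± 0.90 and did not pass. In the naive libraries Itgb2 followed Itgax, with 149.8 and 199.6 CPM in M44 and M45 and 427, 24.4 and 32.4 CPM in M149, M150 and M34.

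V-ATPase subunits went in both directions as well. Of 24 listed, 20 could be tested. Among these, 1 rose and 4 fell in control mice, beside 26.1% and 24.1% of all genes. With both naive and MI libraries of Vegfc-deficient mice 2 rose and 6 fell, beside 29.9% and 27.6%. Without M149 7 rose and 4 fell in Vegfc-deficient mice, so that the balance there turned, and 3 rose and 7 fell in control mice. In that fit 8351 of all genes passed in either direction in Vegfc-deficient and 7624 in control mice. Atp6v0d1, the widely expressed paralogue of Atp6v0d2, differed by 0.044 ± 0.18 and 0.24 ± 0.16 and did not pass. Atp6v0a4 rose by 3.50 ± 0.71 and 3.25 ± 0.57 from at most 1.69 CPM in naive libraries, with values of 4.09 in control mice without M45 and, in Vegfc-deficient mice, 3.91 without M150 and 2.61 without M35. Among those that fell were Atp6v1e1, by 1.19 and 0.73 on the log2 scale, and Atp6v1d, by 1.08 and 1.13. The MiT/TFE factors, which drive lysosomal genes, were split: Mitf fell by 1.06 and 1.21, Tfec rose by 1.36 ± 0.40 and 0.90 ± 0.34, Tfe3 rose by 0.61 ± 0.15 and 1.0 ± 0.14, and Tfeb differed by −0.057 ± 0.20 and 0.0067 ± 0.18. The number of these factors that rose was 2 in each genotype, beside 26.1% of all genes in control and 29.9% in Vegfc-deficient mice. It was 1 in Vegfc-deficient mice without M35. Without M44 or M45 it was lower in both genotypes, as was the number over all genes tested.

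The other 19 genes of the lipid-associated programme went in both directions, in numbers that changed when single libraries were left out. In control mice 4 rose and 4 fell, beside 26.1% and 24.1% of all genes, and in Vegfc-deficient mice 2 rose and 4 fell, beside 29.9% and 27.6%. Each of these counts was below the share over all genes. The median log2 fold changes were 0.51 and 0.52 against 0.13 and 0.10 over all genes. In Vegfc-deficient mice 11 rose and 4 fell without M149, and 4 rose and 4 fell without M35. Of all genes, 8351 and 8414 passed in either direction in these fits. Without M44 or M45, which leaves a single naive control library, fewer of the 19 passed in control mice, as did fewer of all genes. Apoe, which carries lipid out of macrophages, rose by 1.82 ± 0.43 and 1.98 ± 0.37, and the cholesterol exporter Abca1 by 1.81 ± 0.26 and 1.68 ± 0.23. Those that fell in both genotypes were Lpl (−2.72 ± 0.48 and −2.08 ± 0.44), Cd36 (−2.46 ± 0.41 and −2.23 ± 0.38), Fabp4 (−2.07 ± 0.55 and −2.68 ± 0.53) and Syngr1. Without M006 the fall of Fabp4 in control mice was −2.68. Lpl, Cd36 and Fabp4 are also expressed by cardiomyocytes or endothelium, and cardiomyocyte markers summed to 63596 to 90213 CPM in naive and 2398 to 24385 CPM in MI libraries. How much of their fall that carries was not tested.

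Over all 61 related genes tested, 18 rose and 9 fell in control mice, where 26.1% and 24.1% of all genes did, and 16 rose and 11 fell in Vegfc-deficient mice, where 29.9% and 27.6% did. The number that rose in Vegfc-deficient mice was 36 without M149. In that fit 8351 of all genes passed in either direction, beside 4416 upward and 4078 downward with all libraries. In control mice fewer related genes rose without M44 or M45, where the naive control group is a lone library and fewer of all genes passed. In control mice Tyrobp, Plcg2, Inpp5d, Tfec, Npc2, Lgals1, Adam17, Atp6v1f and Itgb1 lost their calls without M44 and also without M45. Apoe, Hcst and Itga9 lost theirs without M44, and Fabp4, Syngr1 and Tfe3 without M45. Tyrobp, Plcg2, Tfec, Npc2 and Adam17 also lost theirs without M38. Tfec lost its call in Vegfc-deficient mice in 8 of the 11 fits that left out a library. After MI none of the 61 differed between genotypes by edgeR's quasi-likelihood test or by DESeq2, which called 0 and 51 of all genes. In edgeR's test 6 had an unadjusted p below 0.05, beside 7.88% of all genes tested.

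The spread of these lists among naive libraries is set here beside that of the members. The median of highest over lowest naive level was 1.86 times for the other genes of the programme, 2.06 for the TREM2 partners, 1.52 for V-ATPase subunits and 2.01 for the receptors, beside 34.5 for the members, which were chosen in part on that spread. Macrophage markers were split in the same libraries. C1qa was 403 to 466 CPM in the 5 naive libraries, with its highest value in M150, and Cd163, a marker of resident macrophages, was 39.1 to 62.6 CPM. Cd68 followed the members, with 205 and 293 CPM in M44 and M45 and 527, 75.8 and 88.9 CPM in M149, M150 and M34, as did Ctsb, at 2177 and 2483 and at 4596, 889 and 912 CPM. M149 was the highest naive library for 7 of 11 macrophage markers, whose sum was 4126 and 4377 CPM in M44 and M45 and 7181, 1908 and 2120 CPM in M149, M150 and M34. Lyz2, which carries the Cre, supplied most of that spread. Without it the sum of the other 10 markers was 2006 and 2095 CPM in M44 and M45 and 2617, 1836 and 1875 CPM in M149, M150 and M34. The span between naive libraries then went from 3.76 to 1.43 times. C1qb, at 417 to 485 CPM, and C1qc, at 364 to 393 CPM, varied little as well, and with C1qa they were among the largest parts of that sum. The part of the macrophage markers in the members' spread was not tested.

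Markers of other cells that express these genes were checked in the same libraries. Chil3, Mmp12, Itgax and Atp6v0d2 are also known from alveolar macrophages, whose markers summed to 82.0 and 87.2 CPM in M44 and M45 and to 67.3, 48.8 and 66.6 CPM in M149, M150 and M34, with Ear1 and Fabp1, of 9 markers, at or under the floor in all 11 libraries. Car4 alone, which lung macrophages share with other cells, was 74.8 and 76.8 CPM and 45.8, 44.5 and 62.4 CPM in these libraries. Without it the other 8 markers summed to 7.14 and 10.3 CPM and to 21.5, 4.24 and 4.15 CPM, so that M149 was highest, as for the members. Marco, a scavenger receptor among them, was 3.48 and 5.62 CPM in M44 and M45 and 14.0, 0.242 and 0.488 CPM in M149, M150 and M34, in the order of the members. In M149 Marco supplied most of the sum without Car4. Siglecf was 1.52 and 1.63 CPM and 2.65, 0.121 and 0.163 CPM in the same libraries. Under the floor of 3 counts were Siglecf in M150 and M34, with 1 and 2 counts, and Marco in M150, with 2 counts. M149 was the highest naive library for 4 of the 7 tested markers of this list, beside 19.9% of all genes. Plet1 was highest in M150, at 1.33 CPM against 0.784 CPM in M149 (11 and 8 counts). Slc39a2 was highest in M34, at 0.895 CPM against 0.392 CPM in M149 (11 and 4 counts). Of 11 lung epithelium markers 4 were at 0 in all 11 libraries and 8 were at or under the floor of 3 counts in the naive ones, and their sum there was at most 12.1 CPM. Scgb1a1, a secretory protein of airway club cells, had 15 and 5 counts in M44 and M45, 22, 0 and 2 counts in M149, M150 and M34 and at most 1 count in any MI library. It fell after MI in both genotypes (adjusted p = 0.0175 and 0.0245), and like Chil3 it was highest in M149 and lowest in M150 among the naive libraries. The other tested markers of this list, Napsa and Ager, went the other way after MI. Napsa rose by 2.38 ± 0.66 in control mice (adjusted p = 0.0137) and differed by 1.37 ± 0.55 in Vegfc-deficient mice (adjusted p = 0.0567). Ager rose by 2.05 ± 0.58 and 1.60 ± 0.52 (adjusted p = 0.0145 and 0.0225). The summed list was 11.6 to 35.9 CPM in the MI libraries. Osteoclast markers, which include Acp5 and Ctsk, summed to 50.5 to 136 CPM in naive and 183 to 393 CPM in MI libraries. Neutrophil markers summed to 20.6 and 37.7 CPM in M44 and M45, to 114 CPM in M149 and to at least 77.6 CPM in M150 and M34. Dendritic cell markers summed to 131 to 255 CPM in the naive libraries. The part of these cells in the members' levels was not tested.

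The genes whose pattern was most like that of the members were sought among 13573 non-members with a mean of at least 1 CPM, by Pearson's r with the members' mean profile over 11 libraries after the mean of the naive or MI libraries was subtracted. Oit3 came first (r = 0.992), followed by Gla, the lysosomal α-galactosidase A (0.99), Lipn, a lipase (0.988), Arhgap25 (0.986), and Atf3, a stress-induced transcription factor (0.985). The members themselves had r from 0.879 for Chil3 to 0.989 for Mmp12 with that mean, of which each is a part. Gla was 33.8 and 40.7 CPM in M44 and M45, 79.3, 8.11 and 10.9 CPM in M149, M150 and M34, and 18.9 CPM in M35 against 29.2 to 70.2 CPM in the other MI libraries. Points of 1 library share its depth and its mix of cells, so these values describe likeness over the 11 libraries and carry no test.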

How the data were processed

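Left ventricular mRNA was sequenced from stranded TruSeq libraries, 11 in all, and per the legend of the study each library is an individual animal. Per library, the authors deposited unnormalized read counts on Ensembl genes. The submitters' processing notes name cutadapt 1.13, STAR, HTSeq 0.6.1p1 and DESeq2 1.14.1 and the build mm10, and whether counting used strand is not given in the sources used here. From these counts, TMM-scaled CPM and a single fit of 4 group means over all 11 libraries were computed with edgeR 4.0.16 in R 4.3.3 (filterByExpr, robust quasi-likelihood F test, Benjamini-Hochberg over 14779 genes, threshold 0.05). Adjusted p-values in the text come from this fit, and SEs are the log2 fold change divided by the square root of F. The spread that the test uses is estimated over all 4 groups together, with M149 and M35 included. Exon lengths and loci came from GENCODE M21 (GRCm38), which held 24991 of the 25006 identifiers. Start regions came from RefSeq.

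The members and the lists of related and marker genes were chosen with earlier results of these data known. Named were all members, Vegfc, Lyz2 and Chil4, from each related list the genes of a set role and up to 2 called genes with the largest change in each direction, and the 5 genes most like the members. Itgb2, the macrophage markers, Ctsb, Ngp and the other named neutrophil markers, Marco, Siglecf, Plet1, Slc39a2, Scgb1a1, Napsa, Ager and Car4 were named after their values were seen. So were the marker sums without Lyz2 or Car4 and the further related genes that lost a call. Alternatives were the DESeq2 1.42.0 Wald test, its size factors, library size alone, no filter on low counts, the compared groups alone, and each library left out in turn. The fit was tested on simulated data.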

Additional observations from a re-analysis of the deposited data

How the results depend on the processing

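No member and no related gene passed the test of genotype after MI under any of the alternatives run, and the lowest adjusted p of any member was 0.676 (Fabp5, without M149; its range was 0.676 to 0.959). The sign of small differences was not stable. That of Spp1, 0.015, was −0.0061 with the DESeq2 Wald test and with DESeq2 size factors. Leaving out 1 library at a time gave log2 differences from −1.03 to 1.58 for Chil3, −0.52 to 0.58 for Mmp12, −0.18 to 1.25 for Gpnmb, −0.41 to 0.25 for Atp6v0d2, −0.10 to 0.55 for Itgax, −0.36 to 0.54 for Spp1, −0.64 to 0.12 for Trem2 and −0.68 to 0.18 for Lgals3, while Cd9 and Fabp5 kept their sign. The related genes that rose after MI in Vegfc-deficient mice were 27 with library size alone, and 13 to 36 with a library left out, the highest without M149. In control mice they were 7 to 24, the lowest without M44. Without M44 or M45 the naive control group is a lone library, assumed to vary like the other groups. The cause of these shifts was not tested. No paired analysis was possible because the groups share no replicate numbers. With 2 or 3 libraries in a group, the width of the intervals limits what could be detected for the members. In the main fit that width also holds the spread among naive libraries. No member passed in the fit of the compared groups alone, which holds no naive library and where 0 of all genes passed.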
